A study of Homo sapiens with 36 samples.

Results

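The untreated cultures of the series, grown without doxycycline (dox), were compared between the sampling times 96 h and 48 h. They were chosen by their labels alone: 18 of the 36 libraries carry the label "no dox", 9 at each time. All cells were MIA PaCa-2, a human pancreatic carcinoma line, engineered with Cas9 and a guide RNA that dox switches on. The control line carried a non-targeting guide, the PELO line a guide against PELO and the HBS1L line a guide against HBS1L, with 3 libraries per line and time. All were grown in RPMI medium with tetracycline-free serum. The other 18 libraries received dox at 2 µg/mL, and of these only the 6 control line libraries were used, as a second view of the same times in cells whose guide has no target. The labels do not say whether the 3 libraries of a group came from separate cultures, whether a line was a clone or a pool, or how many cells were seeded. The p-values therefore rest on the spread between these libraries, which may be technical. The fit over the lines gives them a shared time change. Differences in the change between lines therefore also widen its standard errors and raise its p-values. The library numbers of the 48 h and 96 h samples come from separate blocks, so time in culture and the block in which a library was made cannot be told apart in any result given here.

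Several of the programmes that moved are well known from cultured tumour cells. ATF4 is the transcription factor of the integrated stress response: when amino acids run short or unfolded protein builds up, kinases phosphorylate the initiation factor eIF2, general translation falls, and ATF4 is translated and switches on genes for amino acid uptake, amino acid synthesis and feedback. Immediate early genes such as FOS and EGR1 are transcribed within minutes of growth factor or serum signals through the RAS-MAPK cascade. E2F factors drive the genes of DNA replication as cells enter S phase, and heat shock factor drives the genes of protein-folding chaperones.

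The libraries held 45356024 to 58166548 counts at 48 h and 48329403 to 62618750 at 96 h. KRT8, KRT18 and VIM were present in every untreated library, while CDH1 and EPCAM never passed 3 counts and the 4 genes of chromosome band 9p21, a region known to be lost in this line, never passed 2. The 8 acinar and islet genes checked also stayed at or under 2 counts. Of the leukocyte list 6 of 8 genes, of the endothelial list 4 of 7 and of the fibroblast list 5 of 8 had a mean under 1 CPM, the count of a gene scaled to a common library size. The summed level of the fibroblast list, mostly COL1A2, lay at 139 to 181 CPM at 48 h and 206 to 251 CPM at 96 h, with DCN, LUM and FAP at no more than 3 counts. The leukocyte list summed to 25.8 to 34.4 CPM at 48 h and 24.6 to 28.3 CPM at 96 h, nearly all of it CD68 and CD14, with PTPRC at no more than 3 counts. The endothelial list summed to 82.4 to 107.8 CPM and 78.4 to 90.8 CPM, nearly all of it ENG and CDH5, with PECAM1 at no more than 1 count. Mitochondrially encoded genes took 2.43% to 3.77% of the counts at 48 h and 0.922% to 2.14% at 96 h, without overlap. The number of genes with at least 10 counts was 18409 to 19242 at 48 h and 17938 to 18853 at 96 h. In a principal component analysis of the 18 libraries the first component, 58.6% of the variance, placed the 48 h libraries between -19.8 and -8.97 and the 96 h libraries between 9.56 and 18.2. Replicate 3 of the PELO line at 96 h stood apart on the third component, at 18.6 against 6.65 and 9.22 for the other libraries of its group. Counts with and without that library are given below.

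**Figure D1:**
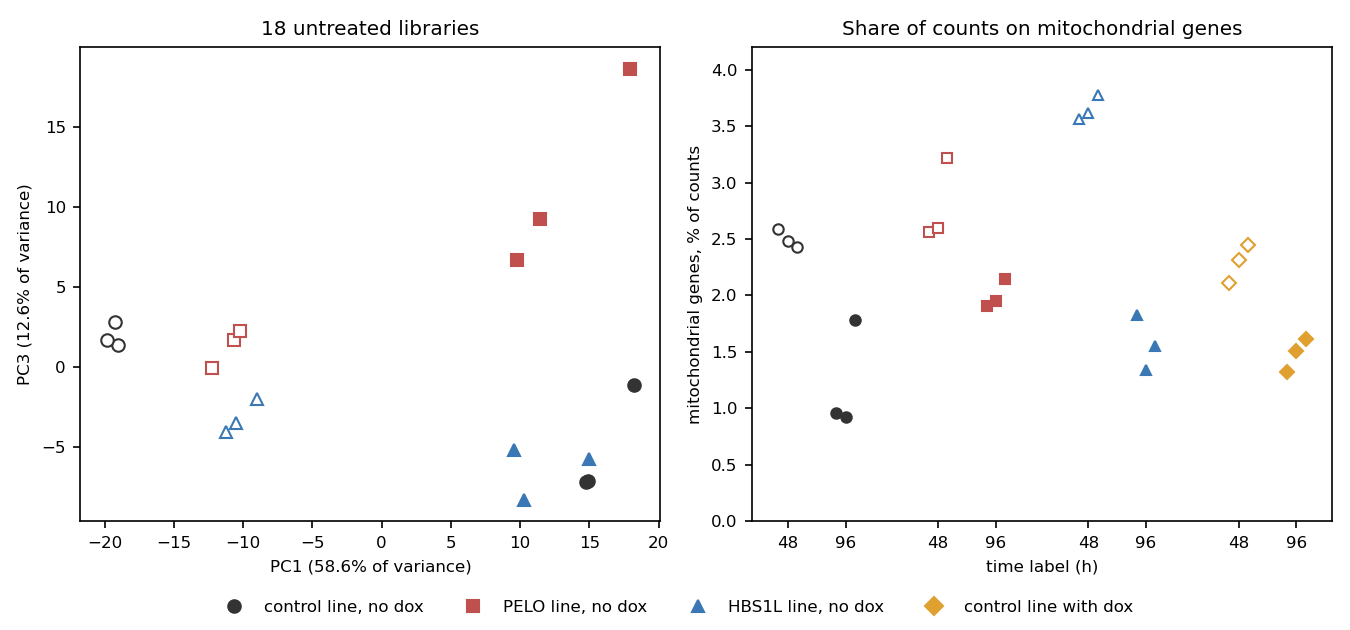
Left, scores of the 18 untreated libraries on principal components 1 and 3 (open symbols 48 h, filled 96 h); right, percent of each library's counts on mitochondrially encoded genes, with the 6 control line libraries with dox added. The times separate on component 1 in all 3 lines, and the mitochondrial share is lower at 96 h in each group pair.

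More than 1 in 2 of the genes tested differed between the times, most by a small amount. Over the 3 lines, with line as a covariate, 10853 of 19927 genes tested (54.5%) were past an adjusted p of 0.05 (edgeR quasi-likelihood test, Benjamini-Hochberg over all genes): 5210 were higher at 96 h (26.1%) and 5643 lower (28.3%). Falls of at least 2-fold were far more frequent, with 712 genes (3.57%), than rises of at least 2-fold, with 30 (0.151%). Among the 9794 genes with a mean of at least 10 CPM the balance of calls turned, with 3930 higher and 2302 lower, and of these 4 rose and 92 fell at least 2-fold. The median log2 change over all genes was close to 0 (-0.00 over the lines, -0.02 in the control line, -0.01 in the PELO line and -0.03 in the HBS1L line).

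The 3 lines were each tested within a single fit of the 6 untreated groups, which share an estimate of the spread. In that fit 3478 of the genes tested (17.5%) were called in the same direction in each line, 1546 upward (7.76%) and 1932 downward (9.7%). They are called alike below. In 2099 of them, 734 upward (3.68%) and 1365 downward (6.85%), the smallest of the 3 changes was also at least 0.5 of the largest on the log2 scale, together 10.5% of the genes tested. A change of at least 2-fold in each line was seen for 5 rises (0.0251%) and 230 falls (1.15%). All 9 libraries of 96 h lay above all 9 of 48 h for 1419 genes (7.12%) and below them for 1595 (8%), together 15.1%. Of these, 1169 (5.87%) and 1417 (7.11%) were also alike. The control line had 10503 genes called (52.7%), 25.6% of the genes upward and 27.2% downward. The PELO line had 8373 (42%; 20.5% and 21.5%) and the HBS1L line 8870 (44.5%; 22.4% and 22.1%). Without replicate 3 of the PELO line at 96 h, 10736 genes were called over the lines, 6627 in the PELO line and 3326 alike. The size of the change differed between the lines for 8029 genes (40.3%), so alike refers to direction and call, not to equal size.

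**Figure D2:**
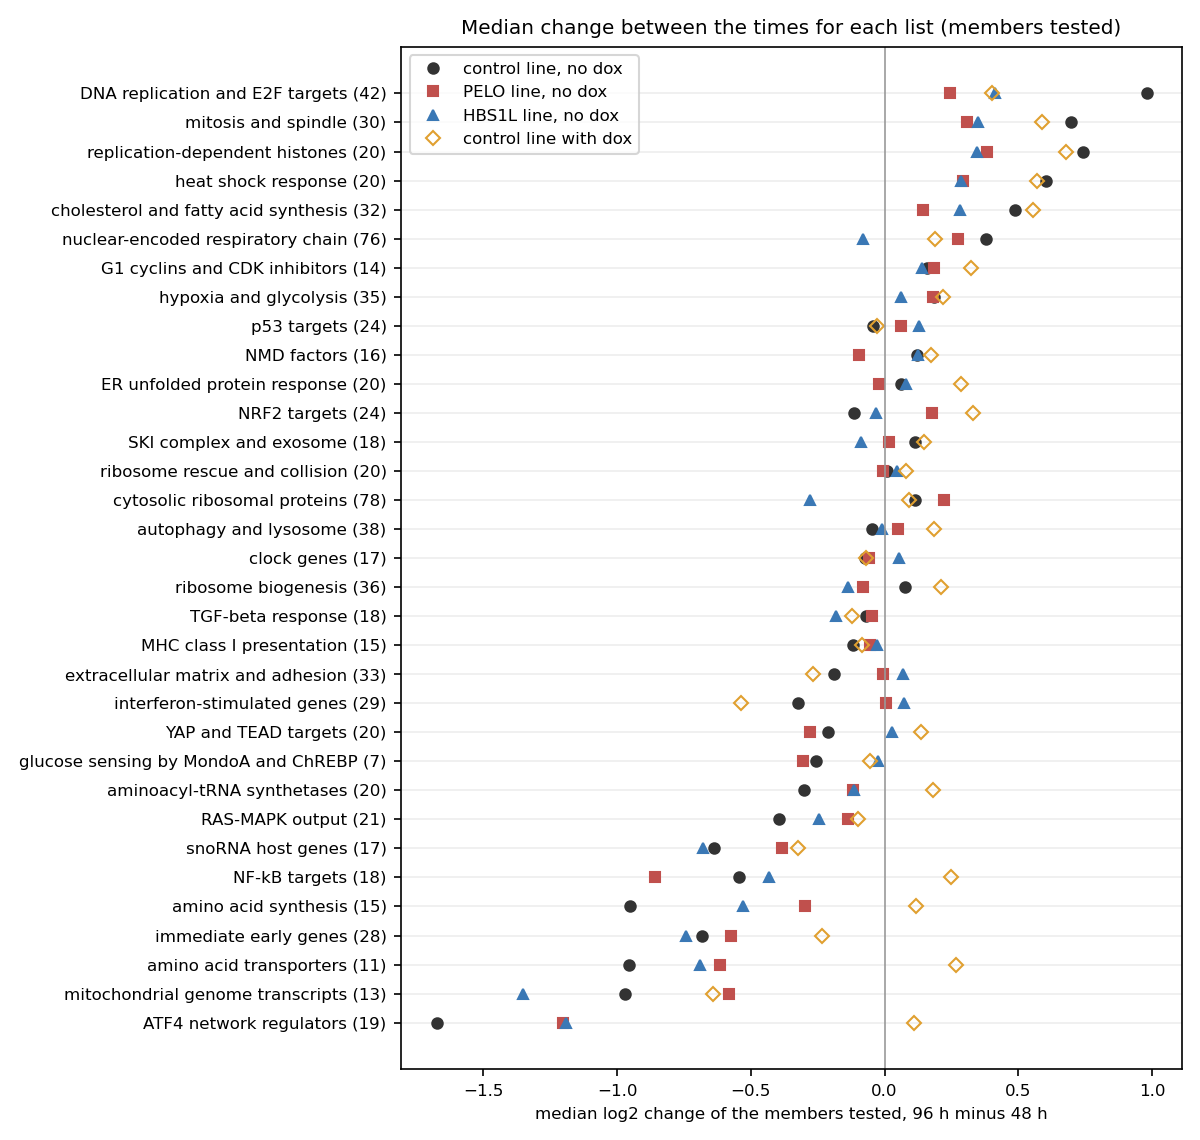
Median log2 change (96 h minus 48 h) of the tested members of each list with at least 7 of them, by line without dox and in the control line with dox; the number of members tested is in parentheses. ATF4 network regulators lie at -1.67, -1.20 and -1.19 in the control, PELO and HBS1L lines, below all other lists except the mitochondrial genome in the HBS1L line, and at 0.11 with dox, while replication, mitosis and heat shock genes lie above 0 in all 4 sets of points.

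Genes of the ATF4 network were lower at 96 h in every line. Of 20 regulators and direct targets on the list, 19 could be tested (STC2 did not pass the filter on low counts). Among those tested, 17 fell and 1 rose over the lines, and 15 fell alike, against 28.3% and 9.7% of all genes. Their median log2 change was -1.31 (-1.67, -1.20 and -1.19 in the control, PELO and HBS1L lines). ATF4 itself (ENSG00000128272.18, chromosome 22, 39519695 to 39522685, + strand, GENCODE 29 on GRCh38) had 457 to 582 CPM at 48 h (median 536) and 201 to 251 CPM at 96 h (median 239). All 9 libraries of 96 h lay below all 9 of 48 h. The log2 change was -1.16 ± 0.05 (adjusted p = 8.79e-13), and the changes of -1.30 ± 0.07 in the control line, -1.02 ± 0.07 in the PELO line and -1.17 ± 0.07 in the HBS1L line did not differ past the threshold (adjusted p = 0.075).

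CHAC1 (ENSG00000128965.13, chromosome 15, 40952962 to 40956519, + strand), which degrades glutathione and is a direct ATF4 target, had 25.9 to 35.5 CPM at 48 h (median 27.01) and 7.42 to 10.1 CPM at 96 h (median 7.70). Again no library of 96 h reached the level of any library of 48 h. It fell by 1.85 ± 0.06 (adjusted p = 3.21e-14). PPP1R15A, the subunit that directs a phosphatase to eIF2 and ends the response, had 117 to 135 CPM at 48 h (median 123) and 39.5 to 54.7 CPM at 96 h (median 51.6) and fell by 1.29 ± 0.05. SESN2, a leucine sensor that restrains the growth kinase mTORC1, fell by 1.43 ± 0.06, with medians of 73.8 and 29.1 CPM. TRIB3, a pseudokinase that feeds back on ATF4, fell by 1.71 ± 0.10, and DDIT4, another restraint on mTORC1 (41.2% of its exonic bases overlap other genes), by 1.02 ± 0.05. The groups did not overlap for any of these genes.

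Secreted factors and stress proteins downstream had the largest falls on the list. GDF15 (ENSG00000130513.7, chromosome 19, 18374731 to 18389176, + strand), a secreted hormone that reports cell stress, had 41.3 to 85.9 CPM at 48 h (median 46.3) and 8.55 to 14.4 CPM at 96 h (median 10.4). The control line had the highest 48 h levels of it, and at 96 h the lowest mean. The changes were -3.22 ± 0.08 in the control line, -1.73 ± 0.07 in the PELO line and -2.13 ± 0.08 in the HBS1L line, with a difference between lines at adjusted p = 6.3e-09. NUPR1, a small stress-induced nuclear protein first described in the pancreas, fell by 2.31 ± 0.15, from a median of 15.1 to 3.25 CPM. INHBE, a subunit of the activin family, fell by 2.11 ± 0.14, from 7.48 to 2.01 CPM. EIF2AK3, the eIF2 kinase of the endoplasmic reticulum, was the member that rose, by 0.31 ± 0.06, and it was not called in each line.

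The promoters of CHAC1 and ASNS are shown because they hold the composite element at which ATF4 and a C/EBP partner bind. Searched as TGATGNAA on both strands in the 250 bases before the annotated start (RefSeq, GRCh38.p14), the element was in 3 of 17 promoters of the regulators and in 3 of 10 promoters of the amino acid synthesis genes and in 0 of 10 of the transporters, against 3.19% of all 27305 promoters and 1.45% of the 11855 that belong to genes tested. The TRIB3 window held no match. Capitals mark the match, which describes the letters and is not evidence of binding in these cells. The CHAC1 window is chr15:40953221-40953470, + strand, and that of ASNS chr7:97872409-97872658, - strand.
CHAC1: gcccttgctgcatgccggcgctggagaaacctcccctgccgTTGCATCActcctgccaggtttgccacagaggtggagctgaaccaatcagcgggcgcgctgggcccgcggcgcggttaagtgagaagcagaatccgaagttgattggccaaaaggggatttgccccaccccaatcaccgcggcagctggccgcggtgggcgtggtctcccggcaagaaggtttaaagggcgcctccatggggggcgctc
ASNS: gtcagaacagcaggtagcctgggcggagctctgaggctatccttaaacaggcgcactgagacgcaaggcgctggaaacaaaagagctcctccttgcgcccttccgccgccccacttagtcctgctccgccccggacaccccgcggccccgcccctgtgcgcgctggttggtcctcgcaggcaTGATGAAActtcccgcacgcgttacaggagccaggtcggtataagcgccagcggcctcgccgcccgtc

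Enzymes and carriers of amino acids followed the same direction. Of 15 genes of amino acid synthesis, all tested, 13 fell, 9 of them alike, and 2 rose, against 28.3%, 9.7% and 26.1% of all genes. ASNS, which makes asparagine (44.6% of its exonic bases overlap other genes), had 122 to 186 CPM at 48 h (median 131) and 49.97 to 99.6 CPM at 96 h (median 54.1) and fell by 1.12 ± 0.14 (adjusted p = 1.49e-06). The fall was smallest in the PELO line: the changes were -1.78 ± 0.06 in the control line, -0.41 ± 0.05 in the PELO line and -1.18 ± 0.06 in the HBS1L line. In the serine pathway PHGDH fell by 0.91 ± 0.10, PSAT1 by 0.88 ± 0.08 and PSPH by 0.40 ± 0.03, all alike. GPT2, the mitochondrial alanine aminotransferase, fell by 0.91 ± 0.04, from a median of 85.1 to 48.1 CPM. CTH and CBS, which make cysteine from homocysteine, fell by 1.12 ± 0.09 and 0.76 ± 0.06. The cytosolic serine hydroxymethyltransferase SHMT1 rose by 0.38 ± 0.04, and its mitochondrial counterpart SHMT2 had a change of -0.42 ± 0.07, with -0.71 ± 0.04 in the control line, -0.07 ± 0.04 in the PELO line and -0.47 ± 0.04 in the HBS1L line, of which the change in the PELO line was not called.

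Of 13 transporters 11 were tested, and 9 fell, all 9 alike, with 1 rise, against 28.3%, 9.7% and 26.1% of all genes. SLC7A5 and SLC3A2 form the carrier that brings in leucine. SLC7A5 had 541 to 797 CPM at 48 h (median 625) and 323 to 406 CPM at 96 h (median 362), without overlap, and fell by 0.81 ± 0.06 (adjusted p = 1.92e-09). SLC3A2 fell by 0.77 ± 0.05, SLC1A5, a glutamine carrier with 23.8% of its exonic bases shared with other genes, by 0.56 ± 0.04, and SLC1A4 by 1.49 ± 0.08. The cystine carrier SLC7A11 fell by 1.36 ± 0.14, from a median of 52.7 to 21.4 CPM. SLC36A4 rose by 0.16 ± 0.04. Of 20 cytosolic aminoacyl-tRNA synthetases, 11 fell and 4 rose. CARS1, GARS1, MARS1 and AARS1 fell by 0.85 ± 0.05, 0.76 ± 0.06, 0.60 ± 0.05 and 0.45 ± 0.04, all alike, and RARS1 rose alike by 0.22 ± 0.03.

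A fall of the ATF4 genes as a group was not seen in the control line with dox. That comparison shares no library with the untreated one and called 10603 of 19564 genes (54.2%), 26.4% upward and 27.8% downward. The median change of the 19 regulators was 0.11 there, with 9 called up and 4 down. The untreated change was lower than the change with dox for 16 of the 19 regulators, 13 of 15 synthesis genes, 10 of 11 transporters and 13 of 20 synthetases, against 12.7% of all genes (edgeR interaction test). CHAC1 had 33.6 ± 2.09 and 7.84 ± 0.435 CPM without dox, and 6.01 ± 0.541 and 7.04 ± 0.149 CPM with dox, at 48 h and 96 h in turn (mean ± SD, n = 3). Only the untreated 48 h group was high, and the dox group of 48 h was near the level that the untreated cells had at 96 h. The interaction was -2.33 ± 0.10 (adjusted p = 1.6e-12). ATF4 had 565 ± 14.96 and 230.2 ± 19.3 CPM without dox, and 234 ± 6.45 and 206 ± 13.04 CPM with dox, in the same order. Its change with dox was -0.18 ± 0.06, and the interaction -1.11 ± 0.08. SLC7A5 rose with dox, by 0.27 ± 0.05 (adjusted p = 4.12e-05), while it fell without.

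**Figure D3:**
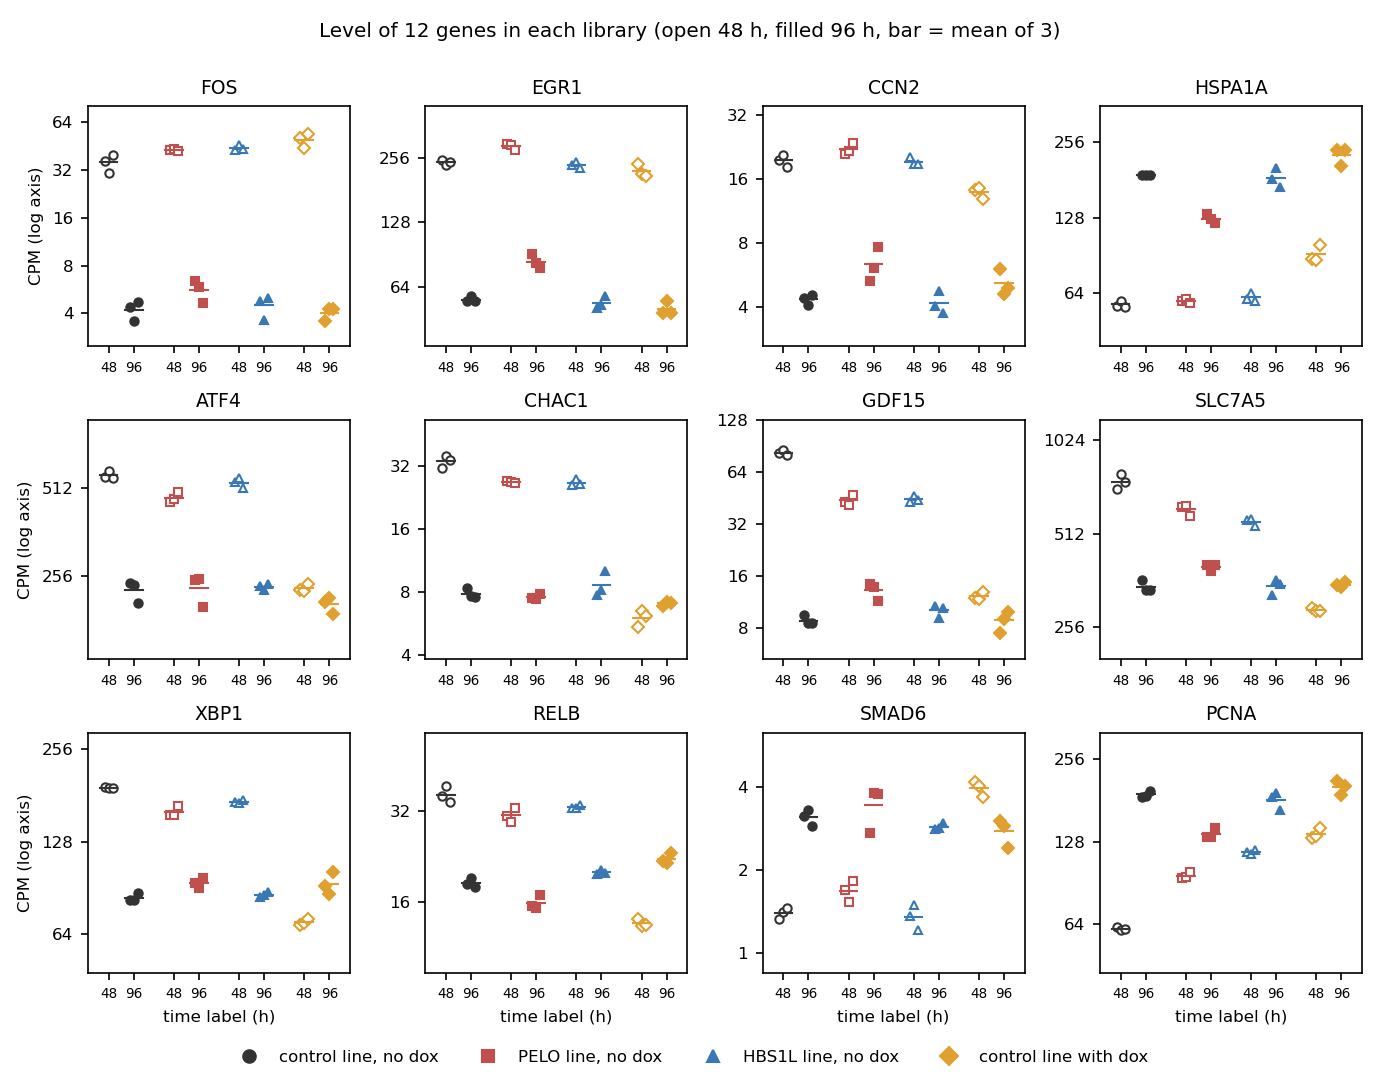
Level in CPM (log2 axis) of 12 genes in each of the 18 untreated libraries and the 6 control line libraries with dox; open symbols are 48 h, filled symbols 96 h, and bars the mean of 3 libraries. FOS, EGR1, CCN2, HSPA1A and PCNA move the same way in all 4 group pairs, whereas CHAC1, SLC7A5, XBP1, RELB and SMAD6 move without dox and not, or the other way, with dox.

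NF-kB targets were lower at 96 h without dox and 10 of them were higher with dox. Of 23 genes on the list 18 were tested. Of these, 15 fell, 11 of them alike, and 0 rose, against 28.3%, 9.7% and 26.1% of all genes. The median was -0.63 (-0.54, -0.86 and -0.43 in the control, PELO and HBS1L lines). IL1B, the cytokine interleukin 1 beta, had 2.98 to 4.68 CPM at 48 h (median 4.13) and 1.02 to 1.87 CPM at 96 h (median 1.40), without overlap, and fell by 1.51 ± 0.07 (adjusted p = 2.84e-12). RELB, a subunit of the non-canonical NF-kB complex, had 29.4 to 38.6 CPM at 48 h (median 32.8) and 15.3 to 20.3 CPM at 96 h (median 18.3) and fell by 0.88 ± 0.04. CXCL2, a neutrophil chemokine, fell by 1.57 ± 0.09, the inhibitor NFKBIA by 0.68 ± 0.05 and IER3, with 26.5% of its exonic bases shared, by 1.19 ± 0.06. With dox the median was 0.25, with 10 members called up and 1 down, against 26.4% and 27.8% of all genes. The untreated change was lower than the change with dox for 15 members, against 12.7% of all genes. IL1B changed by 1.10 ± 0.14 and RELB by 0.70 ± 0.06 with dox, both upward, and the interactions were -2.68 ± 0.20 and -1.68 ± 0.08.

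Several other stress and signalling genes shared that pattern of a fall in all 3 untreated lines without one in the control line with dox. XBP1, the transcription factor of the unfolded protein response, had 156 to 193 CPM at 48 h (median 172) and 82.7 to 97.4 CPM at 96 h (median 87.1), fell by 0.99 ± 0.05 and rose with dox by 0.42 ± 0.05. VEGFA, the angiogenic growth factor, had 113 to 168 CPM at 48 h (median 121) and 40.7 to 53.9 CPM at 96 h (median 43.9) and fell by 1.54 ± 0.08, and its change with dox was -0.09 ± 0.04 (adjusted p = 0.0896). GADD45A, a growth arrest gene, fell by 1.23 ± 0.04, with like changes of -1.21 ± 0.07 in the control line, -1.32 ± 0.07 in the PELO line and -1.15 ± 0.06 in the HBS1L line, and rose with dox by 0.52 ± 0.05. The cyclin CCND2 (13.8% shared exonic bases) fell by 1.66 ± 0.10, from a median of 4.73 to 1.42 CPM, and rose with dox by 0.70 ± 0.15. The interaction was past the threshold for each of the 4, with adjusted p between 1.72e-14 and 8.7e-09. The list of the unfolded protein response, XBP1 included, went both ways. Of 20 genes 9 rose (45%) and 7 fell (35%), against 26.1% and 28.3% of all genes. Without the control line 5 rose and 7 fell. The foldases and chaperones PDIA4, MANF, CRELD2 and CALR rose alike, by 0.27 ± 0.03, 0.50 ± 0.07, 0.37 ± 0.06 and 0.34 ± 0.06, while HSPA5 and HERPUD1 fell alike, by 0.34 ± 0.04 and 0.64 ± 0.04.

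Immediate early genes were lower at 96 h, and the strongest of them fell with dox too. All 28 on the list were tested. Of these, 23 fell, 19 of them alike, and 1 rose, against 28.3%, 9.7% and 26.1% of all genes. The median was -0.71 (-0.68, -0.57 and -0.74 by line). FOS (ENSG00000170345.10, chromosome 14, 75278774 to 75282230, + strand) had 30.8 to 45.9 CPM at 48 h (median 42.6) and 3.56 to 6.45 CPM at 96 h (median 4.71). The lowest library of 48 h was more than 4 times the highest of 96 h. FOS fell by 3.09 ± 0.08 (adjusted p = 1.51e-16), the largest fall among the alike genes with a mean of at least 1 CPM and no overlap between the times, and the lines did not differ past the threshold (adjusted p = 0.217). EGR1 (ENSG00000120738.8, chromosome 5, 138465490 to 138469315, + strand) had 229 to 298 CPM at 48 h (median 245) and 50.8 to 90.5 CPM at 96 h (median 57.8), with the PELO line highest among the 96 h libraries. It fell by 2.02 ± 0.05. FOSB fell by 2.14 ± 0.11, from a median of 8.09 to 1.91 CPM, and JUNB by 0.81 ± 0.03, from 88.3 to 48.7 CPM. Their partner JUN had medians of 119.8 and 115 CPM and a change of -0.04 ± 0.04 (adjusted p = 0.448). IER5 rose by 0.27 ± 0.05.

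In the control line with dox, FOS changed by -3.62 ± 0.12, EGR1 by -2.13 ± 0.06, FOSB by -1.86 ± 0.13 and JUNB by -0.80 ± 0.04, all called downward. The difference from the untreated change was -0.00 ± 0.08 for EGR1 (adjusted p = 0.997) and 0.54 ± 0.17 for FOS (adjusted p = 0.0288). Over the list 13 members were called down and 10 up with dox, beside 27.8% and 26.4% of all genes. ATF3, which is on this list and also an ATF4 target, fell without dox by 1.21 ± 0.06 and rose with dox by 0.71 ± 0.09.

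The EGR1 promoter is shown for its serum response elements. The CArG box, the core bound by serum response factor, was searched on both strands and found in 2 of 20 promoters of the list, EGR1 and SRF, against 1.14% of all 27305 promoters and 0.970% of the 11855 of genes tested. FOS, which has no match in its window of 250 bases, is not shown, and bases further upstream were not searched. The window is chr5:138465229-138465478, + strand, and capitals mark the 2 matches.
EGR1: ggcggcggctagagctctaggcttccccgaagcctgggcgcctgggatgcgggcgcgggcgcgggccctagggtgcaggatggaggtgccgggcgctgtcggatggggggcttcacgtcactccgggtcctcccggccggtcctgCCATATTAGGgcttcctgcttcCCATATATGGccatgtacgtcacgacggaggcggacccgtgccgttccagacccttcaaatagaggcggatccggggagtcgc

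Growth factors and feedback genes of the same cascade moved in the same direction. Of 22 RAS-MAPK output genes 21 were tested. Of these, 15 fell, 8 of them alike, and 2 rose, against 28.3%, 9.7% and 26.1% of all genes. The EGF receptor ligands AREG and HBEGF fell by 0.95 ± 0.05 and 0.92 ± 0.05, and LIF, a cytokine of the interleukin 6 family made by pancreatic cancer cells, by 0.96 ± 0.05. AREG had 113 to 146 CPM at 48 h (median 119) and 57.8 to 72.7 CPM at 96 h (median 63.7), without overlap. The feedback phosphatase DUSP6, with 40.5% shared exonic bases, fell by 0.64 ± 0.05. EPHA4 rose by 0.20 ± 0.06, but not in each line, and was not called without the HBS1L line. HBEGF and DUSP6 rose with dox, by 0.56 ± 0.07 and 0.27 ± 0.07, while AREG fell by 0.58 ± 0.05.

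The matricellular genes CCN1 and CCN2, targets of YAP and TEAD, fell, within a list of which most members were not called. CCN2 had 18.3 to 23.6 CPM at 48 h (median 20.3) and 3.73 to 7.68 CPM at 96 h (median 4.52), without overlap, and fell by 2.06 ± 0.07 (adjusted p = 5.08e-14). CCN1 had 293 to 422 CPM at 48 h (median 379) and 138 to 254 CPM at 96 h (median 166) and fell by 1.08 ± 0.07. DLC1 and NUAK2 fell by 0.83 ± 0.08 and 0.66 ± 0.08. Of the 20 members 7 fell and 0 rose (12 and 1 without the HBS1L line), beside 28.3% of all genes that fell. Of 18 TGF-beta response genes 7 fell (38.9%) and 4 rose (22.2%), shares near those of all genes, and without the control line 6 fell and 6 rose of 17. The 4 rises, all alike, were SMAD6, ID2, ID3 and BAMBI, a decoy receptor that rose by 0.73 ± 0.11. LTBP2 fell by 0.65 ± 0.08, LTBP3 by 0.27 ± 0.04 and TAGLN by 0.55 ± 0.08, all alike.

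**Figure D4:**
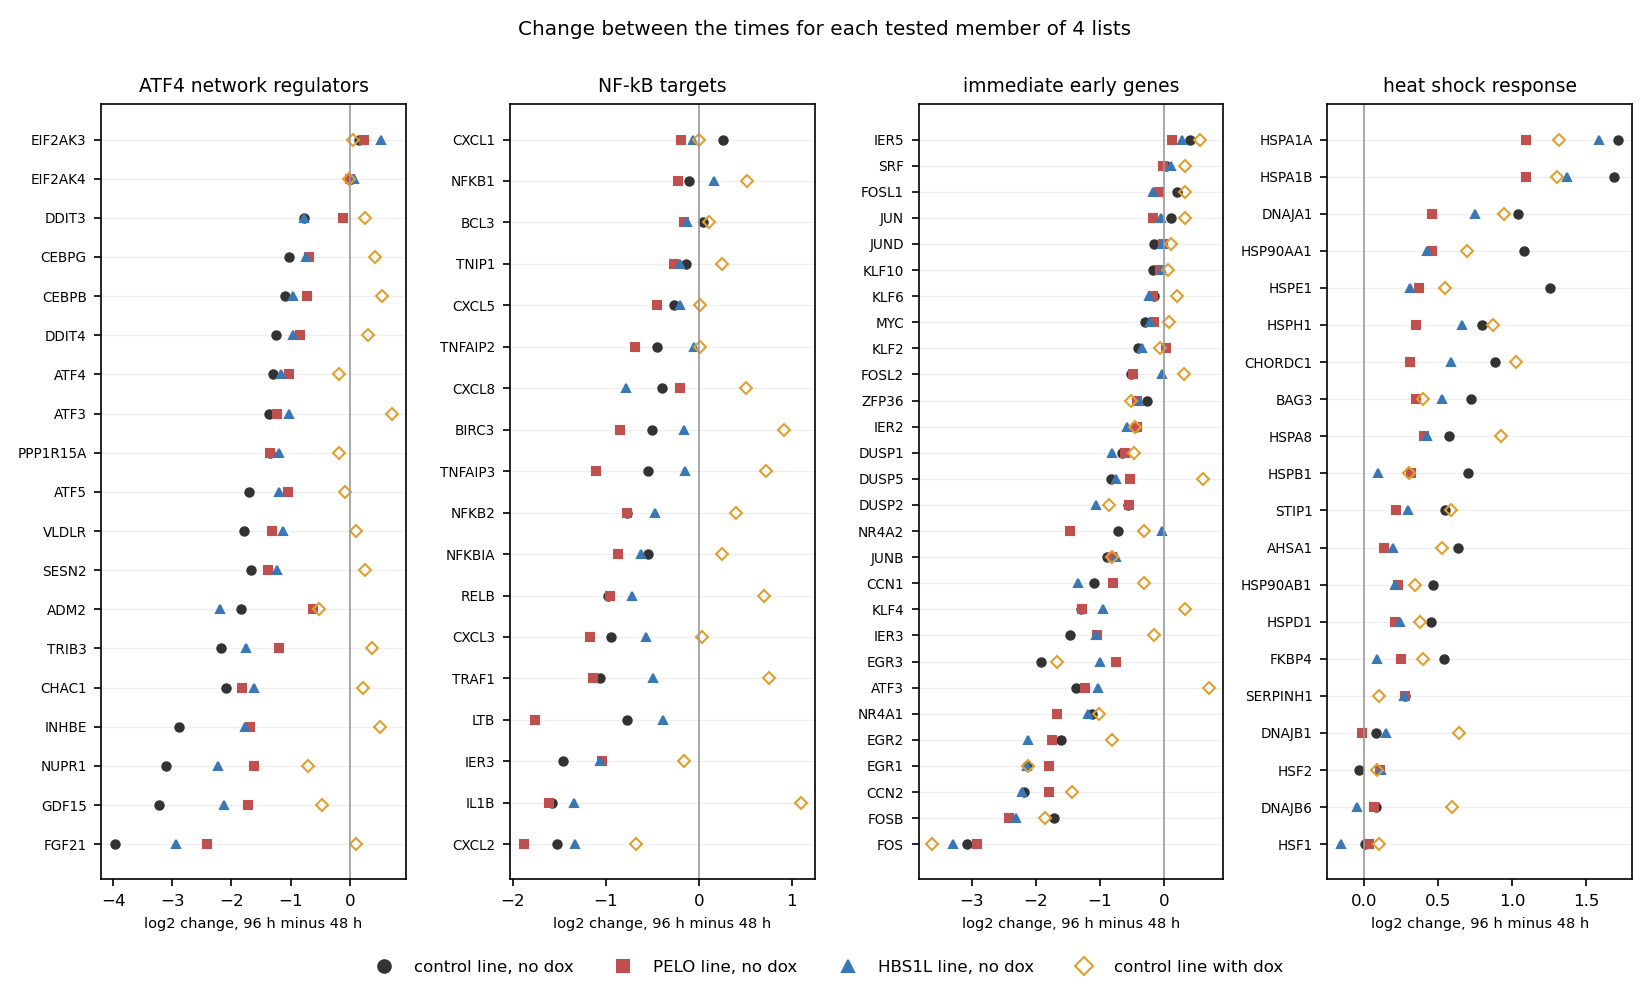
Log2 change (96 h minus 48 h) of each tested member of 4 lists, by line without dox and in the control line with dox; LTB has no value with dox because it did not pass the filter there. Most ATF4 and NF-kB genes lie left of 0 without dox and right of 0 or near it with dox, whereas FOS, FOSB, EGR1 and CCN2 lie left and HSPA1A and HSPA1B right in all 4 sets of points.

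Chaperone genes of the heat shock response were higher at 96 h in all lines and with dox. Of 21 genes 20 were tested; 16 rose and 0 fell, 14 of the rises alike, against 26.1% and 7.76% of all genes, and the median was 0.36 (0.60, 0.29 and 0.28 by line and 0.57 in the control line with dox). HSPA1A (ENSG00000204389.10, chromosome 6, 31815464 to 31817946, + strand), the inducible 70 kDa class chaperone, had 56.2 to 64.1 CPM at 48 h (median 59.6) and 122 to 203 CPM at 96 h (median 182). Each library of 96 h lay above each of 48 h, with the PELO line lowest at 96 h. HSPA1A rose by 1.47 ± 0.07 (adjusted p = 2.88e-12) and HSPA1B by 1.39 ± 0.07. The pair code for nearly the same protein from near-identical sequences, and 36.5% of the exonic bases of HSPA1B overlap other genes, so the division of reads between them is uncertain. With dox they rose by 1.32 ± 0.06 and 1.30 ± 0.06.

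The constitutive chaperone HSPA8 had medians of 1445 and 2069 CPM and rose by 0.47 ± 0.04. The co-chaperone DNAJA1 rose by 0.75 ± 0.06, HSPH1, a nucleotide exchange factor, by 0.60 ± 0.05, HSP90AA1 by 0.65 ± 0.08 and BAG3 by 0.53 ± 0.05. DNAJB1, another target of heat shock factor, had a change of 0.07 ± 0.04 without dox (adjusted p = 0.098) and rose with dox by 0.64 ± 0.05. The heat shock element, searched as GAANNTTC, which reads the same on both strands, was in 8 of 18 promoters of the list (44.4%) against 5.85% of all 27305 promoters and 4.09% of the 11855 of genes tested. HSPA1A is shown, at chr6:31815293-31815542, + strand, with the match in capitals.
HSPA1A: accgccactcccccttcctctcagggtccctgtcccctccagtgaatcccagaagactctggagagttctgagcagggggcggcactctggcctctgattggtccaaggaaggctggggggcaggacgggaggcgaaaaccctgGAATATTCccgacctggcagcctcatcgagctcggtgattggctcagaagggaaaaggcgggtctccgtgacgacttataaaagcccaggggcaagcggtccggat

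Replication genes rose in all lines, with the largest median in the control line. All 42 on the list were tested. Of these, 40 rose, 26 of them alike, and 0 fell, against 26.1%, 7.76% and 28.3% of all genes. The median was 0.54, with 0.98, 0.24 and 0.41 in the control, PELO and HBS1L lines. The change differed between the lines for 41 of the 42, against 40.3% of all genes. In the control line with dox the median was 0.40, with 36 called up and 0 down, against 26.4% and 27.8% of all genes. The untreated change in that line was higher than the change with dox for 39 of the 42, against 15% of all genes. PCNA (ENSG00000132646.11, chromosome 20, 5114953 to 5126626, - strand), the sliding clamp of DNA polymerases, had 60.7 to 119.5 CPM at 48 h (median 94.9) and 133 to 195 CPM at 96 h (median 187). The control line was lowest of the lines at 48 h and level with the HBS1L line at 96 h, as the plot of levels by library shows. PCNA rose by 0.91 ± 0.12, made up of 1.63 ± 0.05 in the control line, 0.50 ± 0.05 in the PELO line and 0.63 ± 0.05 in the HBS1L line (difference at adjusted p = 6.15e-10). RRM2, the regulated subunit of ribonucleotide reductase (20.2% shared exonic bases), rose by 0.91 ± 0.08, RRM1 by 0.48 ± 0.05, the primase subunit PRIM2 by 0.69 ± 0.06 and the origin recognition subunit ORC1 by 0.70 ± 0.07.

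Further S phase genes stood among the 12 largest alike rises, FEN1 and CCNE2 from the replication list and FAM111B and ESCO2 from outside it. FAM111B, a protease gene expressed in S phase, had 5.11 to 8.38 CPM at 48 h (median 7.76) and 10.9 to 25.7 CPM at 96 h (median 22.6) and rose by 1.39 ± 0.16, with 0.48 in the PELO line and 2.14 in the control line. FEN1, the flap endonuclease of lagging-strand synthesis, rose by 0.95 ± 0.12, ESCO2, which acetylates cohesin in S phase, by 0.99 ± 0.09 and the cyclin CCNE2 (37.1% shared exonic bases) by 1.24 ± 0.15. The E2F motifs TTTCCCGC and TTTGGCGC, searched on both strands, were in 9 and 5 of 37 promoters of the list, against 1.42% and 0.553% of all 27305 promoters and 2.20% and 0.852% of the 11855 of genes tested. PCNA is shown, at chr20:5126623-5126872, - strand, with the match to the reverse complement of the first motif in capitals.
PCNA: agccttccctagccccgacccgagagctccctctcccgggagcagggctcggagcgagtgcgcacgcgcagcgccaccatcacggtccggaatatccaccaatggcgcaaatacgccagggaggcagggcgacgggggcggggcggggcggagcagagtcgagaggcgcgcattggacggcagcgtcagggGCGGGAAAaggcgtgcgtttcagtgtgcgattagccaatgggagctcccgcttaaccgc

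Mitosis genes rose with them. Of 30, 27 were higher, 22 of them alike, and 0 lower, against 26.1%, 7.76% and 28.3% of all genes. The medians were 0.70, 0.31 and 0.35 by line and 0.59 with dox. KIF20A, a kinesin of the central spindle, had 86.1 to 114 CPM at 48 h (median 106.5) and 141 to 212 CPM at 96 h (median 195) and rose by 0.91 ± 0.07. CDK1, the mitotic kinase, rose by 0.62 ± 0.05, from a median of 72.5 to 106 CPM, TOP2A by 0.60 ± 0.05 and NUSAP1 (62.2% shared exonic bases) by 0.55 ± 0.05. Replication-dependent histone genes mostly lack a poly(A) tail and so are incompletely captured in polyadenylated RNA. They had 14 rises, 2 of them alike, and 2 falls among 20 tested of 22, against the same shares. Without the control line they had 9 rises and 1 fall. H1-2 rose by 0.85 ± 0.09 and H2BC21 fell by 0.61 ± 0.09.

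Of 14 tested genes that govern entry into S phase 9 rose and 2 fell, against 26.1% and 28.3% of all genes. CCND3 rose by 0.82 ± 0.07 and the CDK inhibitors CDKN2C and CDKN2D by 0.91 ± 0.06 and 0.78 ± 0.07, all alike. CDKN1A, the p21 inhibitor, had 5.02 to 9.02 CPM at 48 h (median 5.91) and 2.41 to 4.104 CPM at 96 h (median 3.41) and fell by 0.91 ± 0.10. CCND1 had medians of 221 and 210.1 CPM and a change of -0.03 ± 0.03 (adjusted p = 0.343). MIA PaCa-2 is known to carry mutant p53, and the p53 list had 11 rises and 6 falls among 24 tested, and 7 and 6 without the control line. All 6 falls but only 1 of the rises were alike. GADD45A and CDKN1A are among the falls, and POLH was the alike rise, by 0.47 ± 0.06.

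A small group of regulators rose in the untreated lines and fell with dox. SMAD6, the inhibitor of bone morphogenetic protein (BMP) signals, had 1.21 to 1.82 CPM at 48 h (median 1.46) and 2.73 to 3.79 CPM at 96 h (median 2.96) and rose by 1.09 ± 0.07, with 1.15 ± 0.13 in the control line, 1.03 ± 0.12 in the PELO line and 1.08 ± 0.13 in the HBS1L line. The lines were nearly equal (difference at adjusted p = 0.857). ID2 and ID3, dominant-negative partners of helix-loop-helix factors and known BMP targets, rose by 0.99 ± 0.07 and 0.68 ± 0.06, whereas ID1 had a change of -0.02 ± 0.05 (adjusted p = 0.811). ZNF488, a zinc finger protein, rose by 1.26 ± 0.07, from a median of 5.08 to 11.2 CPM. With dox SMAD6, ID2, ID3 and ZNF488 changed by -0.52 ± 0.10, -0.68 ± 0.06, -0.27 ± 0.05 and -0.18 ± 0.07, each called downward, and the interactions were past the threshold, at adjusted p from 7.92e-11 to 1.08e-07.

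ID2 shows where the levels lay: the control line had 8.71 ± 0.0847 and 15.9 ± 1.42 CPM without dox, and 21.5 ± 0.509 and 13.4 ± 0.3596 CPM with dox, at 48 h and 96 h in turn (mean ± SD, n = 3). The untreated 48 h group was the low one. Of the other large rises, RASL11A and MN1 rose by 1.00 ± 0.07 and 0.97 ± 0.11 without dox and changed by 0.11 ± 0.07 and 0.14 ± 0.12 with it, neither called. The zinc importer SLC39A10 had 171 to 253 CPM at 48 h (median 212) and 383 to 463 CPM at 96 h (median 413) and rose both without dox, by 1.02 ± 0.06, and with it, by 1.45 ± 0.06.

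Of the 12 largest alike falls, 5 belong to no list. FLRT1 (25.3% shared exonic bases), a leucine-rich membrane protein, fell by 2.83 ± 0.18, FUT1, a fucosyltransferase of the H antigen, by 2.70 ± 0.19 and RAB39B, a small GTPase, by 1.93 ± 0.13. FLRT1 was low throughout, with medians of 1.499 and 0.272 CPM, and so was FUT1, with medians of 2.502 and 0.386 CPM. None of the 3 was called lower with dox: their changes there were -0.68 ± 0.35, 0.24 ± 0.28 and 0.42 ± 0.13. PABPC1L, a paralog of the cytoplasmic poly(A)-binding protein, had 24.6 to 46.1 CPM at 48 h (median 33.3) and 3.86 to 14.7 CPM at 96 h (median 8.19), fell by 2.00 ± 0.16 and fell with dox too, by 2.23 ± 0.17. KRT86, a hair keratin with close copies, so that its counts are uncertain, fell by 2.01 ± 0.30, with -3.48 ± 0.16 in the control line, -0.57 ± 0.14 in the PELO line and -2.57 ± 0.18 in the HBS1L line.

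Cholesterol and fatty acid synthesis genes were higher at 96 h. Of 34 genes 32 were tested. Of these, 24 rose, 16 of them alike, and 1 fell, against 26.1%, 7.76% and 28.3% of all genes. The medians were 0.49, 0.14 and 0.28 by line and 0.56 with dox. IDI1, the isomerase that supplies isoprenoid units, had 32.2 to 44.1 CPM at 48 h (median 39.6) and 48.2 to 64.5 CPM at 96 h (median 62.2) and rose by 0.56 ± 0.06. SQLE, an oxidase of the sterol branch, rose by 0.39 ± 0.04, FASN, the fatty acid synthase, by 0.58 ± 0.06 and INSIG1, the sterol-regulated anchor, by 0.44 ± 0.05.

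Genes of glycolysis and hypoxia rose more often than they fell, 19 against 7 among 35 tested of 37, beside 26.1% and 28.3% of all genes. The collagen prolyl hydroxylases P4HA2 and P4HA1 rose by 0.59 ± 0.04 and 0.34 ± 0.03, and the glycolytic enzymes PKM and PGAM1 by 0.39 ± 0.05 and 0.48 ± 0.07, all alike. HK2, the first enzyme of the pathway, fell alike by 0.45 ± 0.04, and VEGFA fell as described. Of the 7 tested genes that read glucose through MondoA and ChREBP, 5 fell and 2 rose, and 3 fell without the control line or without the PELO line. MLXIPL, which codes for ChREBP, fell by 0.70 ± 0.06 and ARRDC2 by 0.51 ± 0.05. TXNIP fell by 0.45 ± 0.07, with -0.70 ± 0.06 in the control line, -0.51 ± 0.06 in the PELO line and -0.12 ± 0.06 in the HBS1L line, the last of which was not called. NRF2 targets went both ways, with 11 rises (45.8%) and 9 falls (37.5%) among 24 tested, and 6 and 9 without the PELO line. PGD and PRDX1 rose by 0.28 ± 0.04 and 0.53 ± 0.07.

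Transcripts of the mitochondrial genome were lower at 96 h. All 13 protein-coding ones fell over the lines and 6 fell alike, against 28.3% and 9.7% of all genes. The median was -0.91 (-0.97, -0.58 and -1.35 by line). The spread within groups was wide, with 0.922% to 1.78% of the counts in the 96 h libraries of the control line. MT-ND6, the one coding gene of the light strand, had 57.8 to 94.2 CPM at 48 h (median 73.6) and 13.96 to 49.1 CPM at 96 h (median 21.3) and fell by 1.58 ± 0.14 (adjusted p = 2.9e-08). On the heavy strand MT-ND5 fell by 1.23 ± 0.13, MT-ND4L by 1.20 ± 0.14 and MT-ND4 by 1.14 ± 0.13. With dox 4 of the 13 were called down, a share near the 27.8% of all genes, and 0 up, with a median of -0.64. In bulk RNA, fewer cells that carry much of a transcript and less of it per cell cannot be told apart, here and in the results above.

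Host genes of small nucleolar RNAs, whose spliced transcripts are known substrates of nonsense-mediated decay, were lower too. Of 17, 16 fell, 11 of them alike, and 0 rose, against 28.3%, 9.7% and 26.1% of all genes. The median was -0.55, and -0.32 with dox. SNHG1 (15.3% shared exonic bases) had 75.3 to 95.3 CPM at 48 h (median 82.6) and 43.8 to 55.1 CPM at 96 h (median 49.8), without overlap, and fell by 0.76 ± 0.04. SNHG15, SNHG3 and GAS5 fell by 0.85 ± 0.05, 0.81 ± 0.05 and 0.78 ± 0.06. With dox the 4 changed by -0.64 ± 0.06, -0.72 ± 0.06, -0.90 ± 0.06 and -0.73 ± 0.05.

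Most noncoding classes leaned the same way, processed pseudogenes excepted. Of 1055 lincRNA genes 446 fell and 55 rose, of 1392 antisense genes 547 fell and 90 rose, and of 185 snoRNA genes 135 fell and 3 rose, against 3391 falls and 4677 rises among 13674 protein-coding genes. Of 1151 processed pseudogenes, whose reads can come from their parent genes, 151 rose and 121 fell. Long noncoding genes took 0.855% to 0.997% of the counts of each untreated library at 48 h and 0.676% to 0.789% at 96 h, without overlap. In the control line with dox the ranges were 0.869% to 0.874% and 0.652% to 0.685%. Whether strand was used in counting is not given in the sources used here, so reads of antisense and intronic genes cannot be told apart from those of their partners. Level moved with the changes too: among protein-coding genes the median change was -0.11 for means under 1 CPM and 0.09 for means of at least 100 CPM. The part of gene level, gene class and library block in the falls of the lower genes was not tested.

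**Figure D5:**
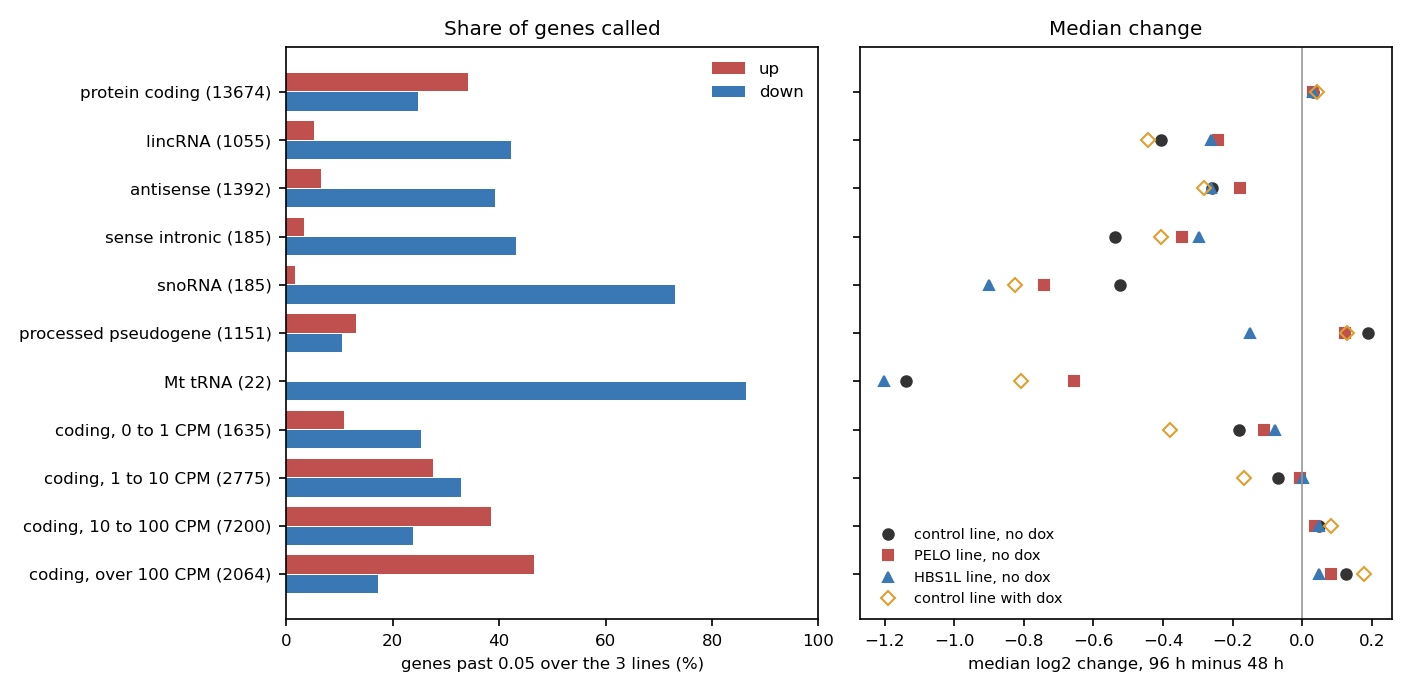
Left, percent of genes past 0.05 over the 3 lines, up and down, by annotated class and, for protein-coding genes, by mean level; right, median log2 change by line and in the control line with dox. Numbers of genes are in parentheses. The noncoding classes other than processed pseudogenes have more falls than rises, while protein-coding genes of at least 10 CPM have more rises.

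Other lists gave shares closer to the 26.1% of all genes that rose and the 28.3% that fell. Interferon-stimulated genes had 7 rises and 10 falls among 29 tested of 37, with 5 alike in all. The medians were -0.32, 0.01 and 0.07 in the control, PELO and HBS1L lines, and without the control line 8 rose and 4 fell. IFIT1 rose alike by 0.35 ± 0.04, and IFIT3 and BST2 fell alike by 0.43 ± 0.06 and 0.46 ± 0.06. With dox 24 members were called down and 2 up, against 27.8% and 26.4% of all genes, and the median was -0.54. BST2 changed there by -1.80 ± 0.08 and IFIT1 by -0.53 ± 0.05. The untreated change was higher than the change with dox for 18 members, against 15% of all genes. Of 15 genes of MHC class I presentation 5 fell and 2 rose: HLA-B fell by 0.27 ± 0.03 and B2M rose by 0.28 ± 0.05.

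Autophagy and lysosome genes had 11 rises and 13 falls among 38, beside 26.1% and 28.3% of all genes. CTSL, a lysosomal protease, had 225 to 275 CPM at 48 h (median 262) and 160.3 to 206 CPM at 96 h (median 179) and fell by 0.50 ± 0.03, and MAP1LC3B, which decorates the autophagosome, fell by 0.55 ± 0.05. ATG4A rose by 0.40 ± 0.04. Clock genes had 6 rises and 4 falls among 17 tested of 19, with CRY1 falling by 0.31 ± 0.04 and DBP rising by 0.43 ± 0.07. Of 33 tested genes of the extracellular matrix 12 fell and 6 rose, but without the control line 7 fell and 9 rose. Their medians were -0.19, -0.01 and 0.07 in the control, PELO and HBS1L lines. MMP14, a membrane-bound collagenase, had 2.37 to 3.85 CPM at 48 h (median 3.36) and 0.459 to 1.51 CPM at 96 h (median 0.9899) and fell by 1.62 ± 0.15, and with dox it changed by -2.09 ± 0.20. COL1A2, a collagen chain otherwise typical of fibroblasts, had 123 to 163 CPM at 48 h (median 144) and 189 to 231 CPM at 96 h (median 218), without overlap. It rose by 0.57 ± 0.03 and fell with dox by 0.34 ± 0.05.

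The genes the series was built around changed little. PELO, the factor that enters stalled ribosomes, had 23.6 to 30.04 CPM at 48 h (median 26.4) and 25.7 to 31.3 CPM at 96 h (median 27.4) and a change of 0.05 ± 0.04 (adjusted p = 0.393), with overlapping groups. HBS1L, its GTPase partner, had 104 to 133 CPM at 48 h (median 123) and 109 to 153 CPM at 96 h (median 144) and rose by 0.15 ± 0.03 (adjusted p = 0.000108), with overlapping groups. The HBS1L line had the lowest HBS1L levels at both times, 105 ± 1.75 and 111 ± 1.99 CPM against 123 ± 1.305 and 143 ± 2.05 CPM in the control line (mean ± SD, n = 3), although no dox was given. The SKI complex genes SKIC2, SKIC3 and SKIC8 had changes of 0.06 ± 0.03, -0.01 ± 0.05 and 0.06 ± 0.04, none called over the 3 lines. SKIC2 was called upward with DESeq2's test or size factors, and SKIC3 and SKIC8 without the HBS1L line. Of PELO and these SKI genes, 1 was called under limma-trend on the deposited log2 values and 2 in a fit of all 36 libraries. FOCAD, a partner of the complex, never passed 1 count. Of 20 genes of ribosome rescue and collision 7 rose (35%) and 6 fell (30%), shares near the 26.1% and 28.3% of all genes. Without the HBS1L line 3 rose and 5 fell. GTPBP2, a GTPase that acts on stalled ribosomes, moved more than the other members named here, with 77.4 to 118 CPM at 48 h (median 86.5) and 34.97 to 44.3 CPM at 96 h (median 39.6) and a fall of 1.22 ± 0.07. Of 18 tested SKI and exosome genes 4 rose (22.2%) and 3 fell (16.7%), beside the same shares of all genes. Without the control line 3 rose and 4 fell. EXOSC8 fell alike by 0.35 ± 0.04 and EXOSC3 rose alike by 0.32 ± 0.06. Of 36 ribosome biogenesis genes 11 fell (30.6%) and 4 rose (11.1%) over the lines, beside 28.3% and 26.1% of all genes. Without the PELO line 9 rose and 8 fell. The medians were 0.08, -0.08 and -0.14 in the control, PELO and HBS1L lines. In the control line with dox the median was 0.21, with 28 called up and 1 down, against 26.4% and 27.8% of all genes. In the control line the untreated change was lower than that with dox for 13 of the 36, against 12.7% of all genes. DDX21, an RNA helicase of the nucleolus, fell by 0.23 ± 0.03 and GNL3 by 0.18 ± 0.03, and with dox they changed by 0.29 ± 0.04 and -0.13 ± 0.05. Of 16 genes of nonsense-mediated decay 8 rose (50%) and 2 fell (12.5%), beside 26.1% and 28.3% of all genes. Without the control line or without the HBS1L line 4 rose. Leaving out 1 of 5 single libraries (replicate 1 of the control line or replicate 2 or 3 of the HBS1L line at 48 h, replicate 2 or 3 of the HBS1L line at 96 h) left 5 rises. UPF1 rose by 0.32 ± 0.05 and UPF3A fell by 0.47 ± 0.05.

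Ribosomal protein and respiratory chain genes moved differently in the HBS1L line. Of 78 cytosolic ribosomal protein genes 1 rose (1.28%) and 2 fell (2.56%) over the lines, against 26.1% and 28.3% of all genes. However, without the HBS1L line 51 rose and 0 fell, and without the PELO line 0 rose and 9 fell. The change differed between lines for 76, against 40.3% of all genes. The medians were 0.11, 0.22 and -0.28 in the control, PELO and HBS1L lines. RPL24 rose by 0.22 ± 0.07 over the lines and RPL10A fell by 0.16 ± 0.05. Neither stayed past the threshold without the control line, and RPL24 was also lost without the PELO line and RPL10A without the HBS1L line. RPL24 by line had 0.45 ± 0.07 in the control line, 0.36 ± 0.07 in the PELO line and -0.15 ± 0.07 in the HBS1L line. Of 76 nuclear-encoded respiratory chain genes 51 rose, 3 of them alike, and 1 fell, against 26.1%, 7.76% and 28.3% of all genes. However, 16 rose without the control line and 32 without the PELO line. Of the 76, 75 differed between lines, with medians of 0.38, 0.27 and -0.08. SDHC and NDUFB3 rose alike, by 0.30 ± 0.04 and 0.56 ± 0.09. Short genes as a whole went with these: in the HBS1L line the median change ran from -0.20 in the fifth of genes with the shortest transcripts to 0.17 in the fifth with the longest, while in the control line the same bins had -0.04 and -0.06. The part of transcript length in the difference between lines was not tested.

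Genes called up in one line, down in another and past the difference test numbered 1172 (5.88%). Of the 8 with the widest range and a mean of at least 1 CPM, ITGB4 was the abundant one, and the other 7 had means of at most 3.18 CPM (TRANK1). ITGB4, the integrin of hemidesmosomes, had 127 to 280.0 CPM at 48 h (median 163) and 128 to 239.6 CPM at 96 h (median 149) with overlapping groups, and changes of -0.81 ± 0.06 in the control line, 0.53 ± 0.06 in the PELO line and -0.04 ± 0.06 in the HBS1L line (difference at adjusted p = 6.87e-10). FLG, which codes for filaggrin, had -0.72 ± 0.28 in the control line, 1.57 ± 0.38 in the PELO line and 0.03 ± 0.24 in the HBS1L line. AIM2, a sensor of cytosolic DNA, had 0.82 ± 0.22 in the control line, -0.82 ± 0.20 in the PELO line and 0.34 ± 0.21 in the HBS1L line. In ITGB4 and FLG the control line fell and the PELO line rose, and in AIM2 the reverse. GFI1B, a transcriptional repressor, fell in the PELO line by 0.78 and rose in the HBS1L line by 0.96.

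The genes that moved alike without dox mostly moved the same way in the control line with dox. Of 1546 alike rises 1083 (70.1%) were called up with dox and 105 (6.79%) down, beside 26.4% of all genes called up there. Of 1922 alike falls in that fit 1321 (68.7%) were called down and 209 (10.9%) up, beside 27.8% called down. The size of the change differed between untreated and dox cultures for 51.2% of the alike rises and 42.4% of the alike falls, against 27.8% of all genes. FOS, FOSB, EGR1 and CCN2 kept their direction with dox, as did the medians of the heat shock, replication, mitosis, cholesterol, snoRNA host and mitochondrial genome lists. Of the 13 mitochondrial genome transcripts only 4 were called down there, a share near the 27.8% of all genes. The medians of the ATF4 and NF-kB lists and the changes of XBP1, SMAD6 and ID2 turned their sign. Both comparisons set 96 h libraries against 48 h libraries from the same blocks, so they do not separate time from block.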

How the data were processed

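RNA of the 36 libraries was polyadenylated RNA, and the 18 without dox were the subject here, with the 6 control line libraries with dox beside them. The deposited expected counts per gene (61544 genes, 45.6% of the values above 0 not whole) were made by the authors; the submitters' processing notes name DRAGEN, Subread, featureCounts, edgeR, limma and GRCh38.p13 without their roles. Versions, annotation release and strand setting were not given in the sources used here. A log2 table of 17138 genes was also deposited by the authors, which equals log2(count + 0.5) plus a constant for each library within 1.01e-13, as checked on the values. No column belonged to another sample (0), and no libraries held identical counts (0).

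Counts were rounded to whole numbers. Low genes were removed with edgeR's filterByExpr (minimum count 10, minimum total 15), which left 19927 genes in the untreated fit and 19564 in a fit of the 12 control line libraries. Libraries were scaled by TMM over all 36, and CPM values use those scaled sizes. The change from 48 h to 96 h was tested with edgeR's quasi-likelihood test (edgeR 4.0.16, R 4.3.3), over the lines with line as a covariate, in each line from a fit of the 6 untreated groups, and as a difference between lines (all 3 changes equal). The control line with and without dox gave a further fit with an interaction. Adjusted p-values are Benjamini-Hochberg over all genes of a fit, called at 0.05. Values after ± are standard errors for log2 changes and SD for CPM levels. The fit over the lines had no term for a change that differs by line, so its standard errors and p-values include such differences. The scripts were tested on simulated data.

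Named genes follow a rule: PELO, HBS1L and the SKI genes; the 12 largest rises and falls among alike genes with a symbol, a mean of at least 1 CPM and no overlap between the 9 libraries of each time; for each list up to 4 members of lowest adjusted p in its leading direction and 1 in the other; and the 8 genes that differ most between lines. Further list members are given as values that describe their role, and some members are not reported here. The comparison, the lists and the rule were chosen with earlier results of these data known. Gene positions and the percent of exonic bases shared with other genes on either strand come from GENCODE 29. Promoters (250 bases before the start) come from RefSeq, with 686 of 851 tested list genes matched. Alternatives were limma-trend (limma 3.58.1) on the deposited log2 values, DESeq2 1.42.0, other filters, a replicate block, and leaving out each line or library.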

Additional observations from a re-analysis of the deposited data

Results flagged for a closer look

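The change from 48 h to 96 h differed between the 3 lines for 8029 genes and was opposite in direction in a pair of lines for 1172, by a test of the difference itself (edgeR quasi-likelihood test, Benjamini-Hochberg). In the control line it differed between cultures without and with dox for 5430 genes. Of the 193 genes named by the rule, 122 were past that second test (27.8% of all genes were), and of the 185 that were not picked for differing between lines, 131 were past the first (40.3% of all genes). The named genes were mostly chosen for large changes, so these counts say nothing of genes in general.

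In 6 lists nearly every member differed between lines: 14 of 15 amino acid synthesis genes, 10 of 11 amino acid transporters, 41 of 42 replication genes, 23 of 24 NRF2 targets, 76 of 78 ribosomal protein genes and 75 of 76 respiratory chain genes, beside 40.3% of all genes. The difference between cultures without and with dox was past the threshold for 14 amino acid synthesis genes, 10 transporters and 39 replication genes, beside 27.8% of all genes.

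The 8 genes with the widest range of log2 change between lines were FLG (2.29), GFI1B (1.75), AIM2 (1.63), ST6GALNAC2 (1.41), ITGB4 (1.34), TRANK1 (1.33), ALG1L13P (1.33) and ZMYND12 (1.22). Of ST6GALNAC2 57.2% and of ALG1L13P 53.3% of the exonic bases overlap other genes. No test of single outlying samples was run within the groups of 3 libraries.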

How the results depend on the processing

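Counts of called genes were within 1.5 times those reported with 3 exceptions. Requiring at least 2-fold in each line left 235 of the alike genes. With a mean of at least 10 CPM, chosen after seeing the data, 6232 genes were called over the lines (63.1% of them upward, against 48.0%) and 6538 in the control line. Under limma-trend 55.4% of 10088 calls were upward. DESeq2's test called 10863 over the lines, no filter 10677 and all 36 libraries 12576. The counts over lines were 8169 without the control line, 10163 without the PELO line and 10615 without the HBS1L line. TMM on the 18 untreated libraries alone, also added later, gave 10852.

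Leaving out 1 library gave 10272 to 10913 calls over the lines, 9398 to 10925 in the control line, 6627 to 8381 in the PELO line, 7298 to 9426 in the HBS1L line, 2931 to 3399 alike, 6862 to 8325 for the difference between lines, 9434 to 10785 with dox and 4492 to 5447 for its interaction. Of 3330 single-gene results under these settings 27 lost their call, all of them for KRT8, KRT18, ACSS2, COL1A1 and DIS3L. Leaving out the control, PELO or HBS1L line lost 8, 7 and 10 calls of named genes. No named gene reversed.

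Replicate numbers did not pair the libraries. Same-numbered libraries correlated at -0.59 to 0.60, with 20 of 45 pairs over 0.1. Libraries with other numbers correlated at -0.67 to 0.70, with 37 of 90 pairs over 0.1. Of the 18 libraries 7 correlated best with their own number. With the number as a block 10615 genes were called over the lines, 10542, 8458 and 8935 in the control, PELO and HBS1L lines, 3518 alike, 8134 for the difference between lines, 10548 with dox and 5375 for the interaction, and of the named genes KRT8 lost its call. The number of libraries per group, 3, and low counts in genes near 1 CPM limit the precision.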
